A study of Mus musculus with 4 samples.

Results

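The transcripts described here are 35 genes known from neutrophils, monocytes, macrophages and dendritic cells, read in sorted T follicular helper (TFH) cells. A member was any gene of a given name list whose symbol is the only one given to a probe set, and its brightest such probe set by mean over the arrays stood for it. All 35 were found among 18193 genes chosen the same way. Spleen TFH cells were sorted 8 days into an infection with the Armstrong strain of lymphocytic choriomeningitis virus (LCMV), and total RNA was hybridised to 4 Affymetrix arrays, 2 labelled Rictor-null and 2 labelled WT. The Rictor-null mice were *Rictor* fl/fl animals carrying *Cd4*-Cre, called *Rictor-/-* below, and the WT mice were *Rictor* fl/fl littermates without Cre. Both groups therefore carry the floxed allele, both sexes were used, and infection was at 6 to 10 weeks of age according to the methods. *Cd4*-Cre is active from the double-positive thymocyte stage on, so CD8 as well as CD4 T cells lose the gene, while myeloid cells are not usual targets of that Cre. Each array holds RNA of pooled mice, at least 5 per sample in the series description, whereas a legend of the study gives 6 *Rictor-/-* and 4 WT mice per group. With 2 pools per group, every p-value below rests on the spread between 2 arrays of a group, moderated by limma with that of the other genes. Such a spread is a poor guide to further pools. The legend names a single experiment, so the p-values say nothing about a repeat of it.

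Myeloid cells clear microbes by engulfing them, by producing reactive oxygen with the phagocyte NADPH oxidase and by releasing granule enzymes such as lysozyme. Their Fc receptors bind antibody and signal through small adaptors with ITAM motifs, and PU.1, encoded by *Spi1*, drives much of their gene program. A T cell sort is made to leave such cells out. The study refers to earlier work for how the array samples were isolated. Several of these transcripts are also known from natural killer (NK) cells, among them *Fcgr3*, *Tyrobp* and *Fcer1g*. In such bulk RNA, fewer cells of a type and less RNA per cell cannot be told apart.

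Of the 35 myeloid transcripts, 12 were higher in *Rictor-/-* TFH cells, 0 were lower and 23 did not pass the test (limma with Benjamini-Hochberg adjustment over all genes, threshold 0.05). At an unadjusted p under 0.05, 15 passed. The 12 make 34.3% of the members, where 12.5% of all genes were higher and 7.19% lower. They were *Lyz1*, *Lyz2*, *Cst3*, *Chil3*, *Fcgr3*, *Tyrobp*, *Lst1*, *Ms4a6c*, *Ncf1*, *S100a8*, *Ccl6* and *Ccl9*. Several of them stand in the study's own list of genes past a fold cutoff, which was drawn from these same arrays, so that their direction there is no independent evidence. Fold changes are *Rictor-/-* minus WT on the log2(intensity + 16) scale, which understates the change of dim genes. The median over the members was 0.092, against 0.0068 over all genes. Both *Rictor-/-* arrays lay above both WT arrays for 17 members, and below them for 5, which compares with 30.6% and 24.9% of all genes.

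The members differed widely in brightness. The median probe set of an array had an intensity of 20.0 to 20.4, and 19 members had a mean at or above the average of these medians while 16 lay under it. Of the 19 brighter members 10 were higher, where 20.1% of all genes that bright were higher and 11.4% lower. The mean is taken over all 4 arrays, so that *Chil3* counts as bright only through its *Rictor-/-* values, and the count of 10 is a description. Among the 16 dimmer ones *Ccl6* and *Ccl9* passed. No member was listed at 0. The members had 51 probe sets in all, and of the 10 with several, 6 had sets that did not all move the same way. The plot of intensities by array shows both the spread of brightness and the gap between the groups.

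**Figure D1:**
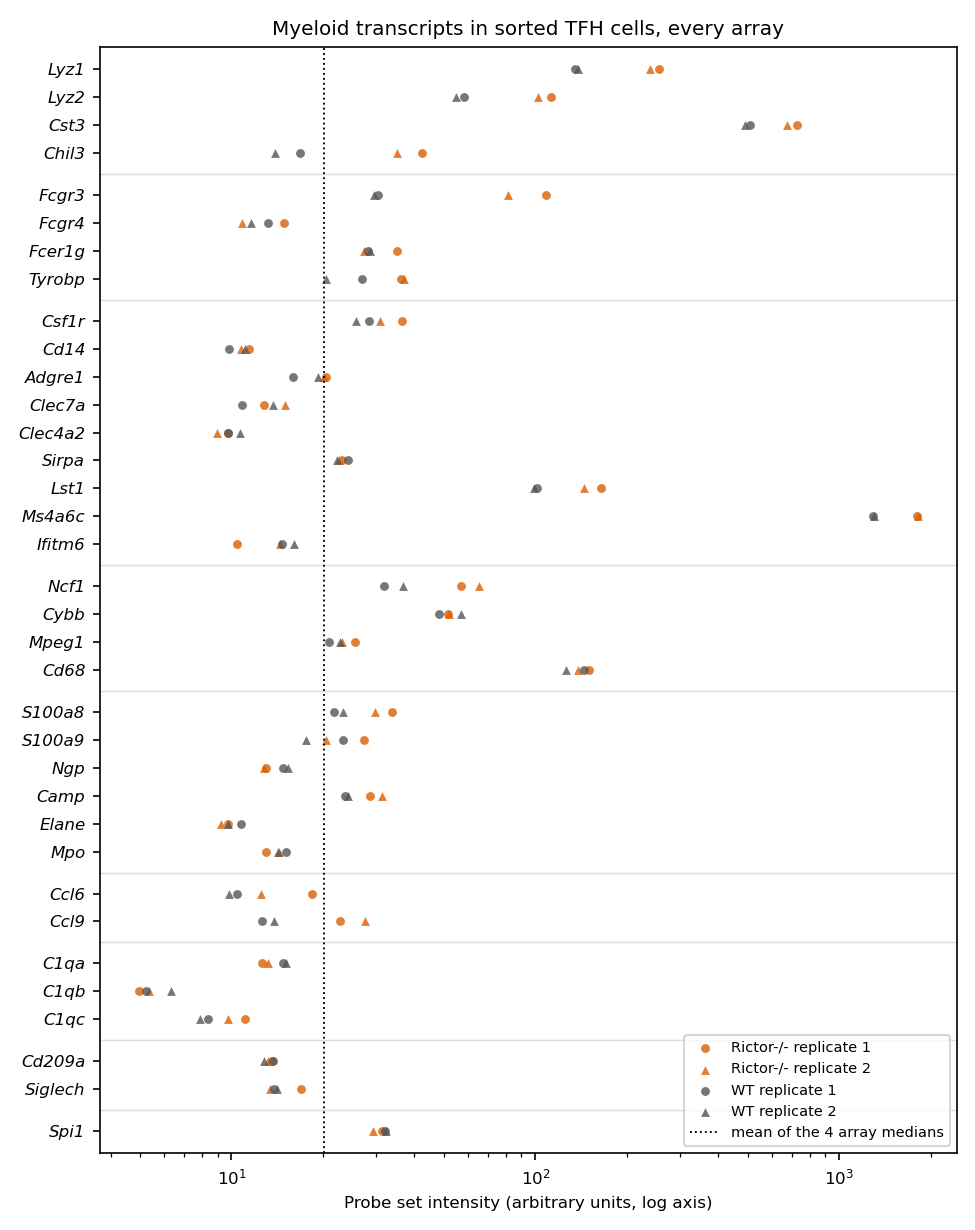
Intensity of each of the 35 myeloid transcripts (arbitrary units, log axis) on the 2 *Rictor-/-* arrays (orange) and the 2 WT arrays (grey), in role groups divided by lines. The orange points lie to the right of the grey ones for 17 transcripts, while those of the C1q chains and dendritic cell receptors lie left of the dotted line, the mean of the array medians (20.1).

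Markers of TFH and CD4 T cells were bright in all samples, and the arrays held no other sorted cell type for comparison. All 13 of them, *Cd4*, *Cxcr5*, *Bcl6* and *Il21* included, had intensities of at least 208 on every array. Of these, 10 were lower in *Rictor-/-* cells and 0 higher. Among all genes 7.19% were lower, and among those at or above the median 11.4% were lower and 20.1% higher. *Rictor*, the deleted gene, had 5 probe sets. The brightest gave intensities of 267 and 279 on the *Rictor-/-* arrays and 334 and 303 on the WT arrays, with a log2 fold change of -0.21 (standard error 0.06, limma adjusted p = 0.0366). The other 4 sets gave differences between -0.03 and 0.11, and the mean of all 5 gave -0.014 (limma adjusted p = 0.9). The brightest set did not pass when every probe set was tested (0.0868), without the trend (0.0637), nor without *Rictor-/-* replicate 1 (0.159), WT replicate 1 (0.297) or WT replicate 2 (0.0824). The exons these probe sets read are not known here, and probes beyond the floxed exon would not check the deletion. The study reported separately that it could not detect *Rictor* mRNA in TFH cells sorted from *Rictor-/-* mice. It also reported that AKT phosphorylation, its measure of the kinase complex built on Rictor, was not induced in stimulated *Rictor-/-* CD4 T cells. Pearson's r over the probe sets was 0.998 or more within a group and 0.993 to 0.994 between groups. The counts over all genes, 2283 higher and 1308 lower, fell to 1005 and 457 without WT replicate 1, and to 930 and 494 without WT replicate 2.

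The lysozymes and other secreted proteins were all higher, 4 of 4. *Lyz1* encodes the P-type lysozyme and *Lyz2* the M-type, enzymes that cut the bacterial cell wall. *Lyz1* had intensities of 255 and 238 on the *Rictor-/-* arrays and 135 and 138 on the WT arrays. Its log2 fold change was 0.79 (standard error 0.07, limma adjusted p = 7.2e-06). *Lyz2*, the macrophage and neutrophil form, had 113 and 102 against 58.1 and 54.7. This was a log2 fold change of 0.77 (standard error 0.08, limma adjusted p = 4.3e-05). For both genes the lower *Rictor-/-* array exceeded the higher WT array by more than either group's spread. The 2 genes are next to each other on chromosome 10, with 0 protein-coding genes between them, and are closely related copies. Whether a probe binds transcripts of both was not checked. The *Lyz1* probe set used has a name ending in _x_at, which marks probes able to bind other transcripts too. A second set of that kind gave 50.9 and 51.3 against 31.5 and 28.8. The set free of that mark read 9.88 to 10.6 over the 4 arrays, under the array medians, and with only unmarked sets the *Lyz1* difference was 0.03 (limma adjusted p = 0.774). *Lyz1* and *Lyz2* are therefore uncertain as separate signals.

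The likeness of the pair reaches into their promoters, which are printed here because the probe sets used for the 2 neighbours were both higher. Whether *Lyz1* itself changed is uncertain, as given above, and shared control of the pair was not tested. The sequences are the 250 bases upstream of each start in RefSeq (GRCm38.p6), both on the minus strand and 5′ to 3′, *Lyz1* at chr10:117292869-117293118 and *Lyz2* at chr10:117282273-117282522. Capitals would mark GAGGAA, the core bound by PU.1-type factors, searched on both strands, and neither holds a match.
Lyz1: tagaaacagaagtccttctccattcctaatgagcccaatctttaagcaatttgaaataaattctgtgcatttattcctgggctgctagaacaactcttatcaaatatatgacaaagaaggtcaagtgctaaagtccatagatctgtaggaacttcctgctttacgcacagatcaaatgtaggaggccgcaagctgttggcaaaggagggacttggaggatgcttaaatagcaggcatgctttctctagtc
Lyz2: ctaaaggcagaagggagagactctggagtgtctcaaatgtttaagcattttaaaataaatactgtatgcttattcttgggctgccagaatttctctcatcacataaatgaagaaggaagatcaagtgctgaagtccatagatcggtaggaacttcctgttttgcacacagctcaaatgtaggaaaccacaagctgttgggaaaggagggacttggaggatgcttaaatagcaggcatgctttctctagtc
Aligned over 252 columns, 4 of them gaps, the pair had 200 identical positions, or 79.4%. GAGGAA stood in 23.1% of the 27025 promoters of this length, and in 10 of the 27 members that have an entry (37.0%). It was in 3 of the 10 searched members that were higher, *Cst3*, *Fcgr3* and *S100a8*, and in 7 of the 17 that did not pass. A looser CEBP-type motif, TTGCNNAA, was in 6 of the 27 (22.2%) against 9.55% of all promoters. These were 2 of the 10 higher members, *Lyz1* and *Fcgr3*, and 4 of the 17 that did not pass. These matches describe the letters in the window and do not show binding. *Csf1r*, *Spi1*, *Sirpa*, *Cd14*, *Tyrobp*, *Adgre1*, *Lst1* and *C1qa* were not searched.

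*Cst3* encodes cystatin C, a secreted inhibitor of cysteine proteases that dendritic cells and macrophages make in quantity and many other cells make too. It had intensities of 728 and 673 in *Rictor-/-* cells and 509 and 490 in WT cells, a log2 fold change of 0.47 (standard error 0.06, limma adjusted p = 6.8e-05). *Chil3*, the chitinase-like protein Ym1 of monocytes and alternatively activated macrophages, had 42.4 and 35.1 against 16.8 and 13.9. Its log2 fold change was 0.80 (standard error 0.09, limma adjusted p = 4.2e-05). Both WT values of *Chil3* were under their arrays' medians, and both *Rictor-/-* values were above them.

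Among Fc receptors and ITAM adaptors, 2 of 4 were higher. *Fcgr3* encodes the low-affinity IgG receptor CD16, present on macrophages, neutrophils and NK cells. Its intensities were 108 and 81.4 on the *Rictor-/-* arrays and 30.4 and 29.5 on the WT arrays, 3.17-fold higher in the means. The log2 fold change of 1.26 (standard error 0.11, limma adjusted p = 8.6e-06) was the largest of the 35 members. *Tyrobp*, the adaptor DAP12 of myeloid and NK receptors, had 36.2 and 36.9 against 26.9 and 20.5, a log2 fold change of 0.41 (standard error 0.09, limma adjusted p = 0.0056). Most of the spread in *Tyrobp* was between the WT arrays, and without WT replicate 2 the difference was 0.29 and did not pass (limma adjusted p = 0.0978). *Fcer1g*, the Fc receptor gamma chain through which CD16 signals, had 35.2 and 27.2 against 28.1 and 28.5. The groups overlapped, and its log2 fold change was 0.09 with a 95% interval of -0.11 to 0.28. *Fcgr4*, the neighbour of *Fcgr3* with 0 protein-coding genes between them and a receptor of monocytes and neutrophils, lay under the array medians at 10.8 to 14.9. Its difference was 0.02 on the log2 scale (95% interval -0.12 to 0.17).

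The *Fcgr3* promoter is printed as that of the member with the largest difference. It lies on the minus strand at chr1:171059404-171059653 (RefSeq, GRCm38.p6) and is given 5′ to 3′ with the match to GAGGAA, read on the other strand, in capitals. The match begins 6 bases before the start of the gene.
Fcgr3: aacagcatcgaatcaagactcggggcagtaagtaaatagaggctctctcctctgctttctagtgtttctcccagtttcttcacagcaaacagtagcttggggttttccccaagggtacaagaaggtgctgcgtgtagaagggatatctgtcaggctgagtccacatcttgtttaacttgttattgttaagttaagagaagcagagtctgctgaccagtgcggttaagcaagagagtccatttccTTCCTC

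Of the 9 surface receptors and membrane proteins, 2 were higher. *Ms4a6c*, a tetraspan membrane protein of the MS4A family found on monocytes, had intensities of 1801 and 1816 against 1291 and 1299. The log2 fold change was 0.48 (standard error 0.04, limma adjusted p = 1.0e-05), with replicates far closer to each other than the groups. A second probe set of *Ms4a6c* gave another reading, 155 and 149 against 149 and 174, with overlapping groups and a difference of -0.07. *Lst1*, leukocyte-specific transcript 1 of the MHC class III region, had 164 and 145 against 101 and 98.8. Its log2 fold change was 0.55 (standard error 0.08, limma adjusted p = 0.00025). *Csf1r*, the receptor for macrophage colony-stimulating factor that defines monocytes and macrophages, had 36.4 and 30.8 against 28.3 and 25.6. The groups did not overlap, but the difference of 0.21 did not pass (95% interval 0.02 to 0.39, limma adjusted p = 0.118), and 2 further *Csf1r* probe sets gave -0.08 and 0.10. *Sirpa*, the inhibitory receptor that binds CD47, had 23.1 and 22.5 against 24.2 and 22.2, a difference of -0.01. The remaining 5 in this group had means under the array medians. They were *Cd14*, the co-receptor for lipopolysaccharide, *Adgre1*, which encodes F4/80, the lectin receptors *Clec7a* (Dectin-1) and *Clec4a2*, and *Ifitm6*. Their intensities ran from 8.94 to 20.5 and their differences from -0.14 for *Ifitm6* to 0.11 for *Adgre1*, and none of these 5 passed. *Ifitm6* passed as lower without *Rictor-/-* replicate 2 (-0.24, limma adjusted p = 0.0382), the replicate nearer to the WT values.

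The phagocyte oxidase and endolysosome genes gave 1 of 4. *Ncf1* encodes p47phox, the cytosolic organiser of the NADPH oxidase. It had intensities of 56.8 and 65.4 against 31.7 and 36.6, a log2 fold change of 0.62 (standard error 0.09, limma adjusted p = 0.00042). A second *Ncf1* probe set gave 0.40 and the third, near 8 on most arrays, 0.05. *Cybb*, the membrane-bound catalytic subunit of the same oxidase, had 51.5 and 52.1 against 48.1 and 57.0. The WT values enclosed the *Rictor-/-* values, and the difference was -0.01 with a 95% interval of -0.21 to 0.18. *Cd68*, the macrophage lysosomal glycoprotein, had 151 and 138 against 145 and 126, a difference of 0.08 (95% interval -0.09 to 0.26). *Mpeg1*, the pore-forming protein perforin-2, had 25.5 and 23.2 against 20.9 and 22.7, apart by a narrow margin and with a difference of 0.09 that did not pass (limma adjusted p = 0.458). The intervals of *Cybb* and *Cd68* lie under the interval of *Ncf1*, which runs from 0.42 to 0.82.

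**Figure D2:**
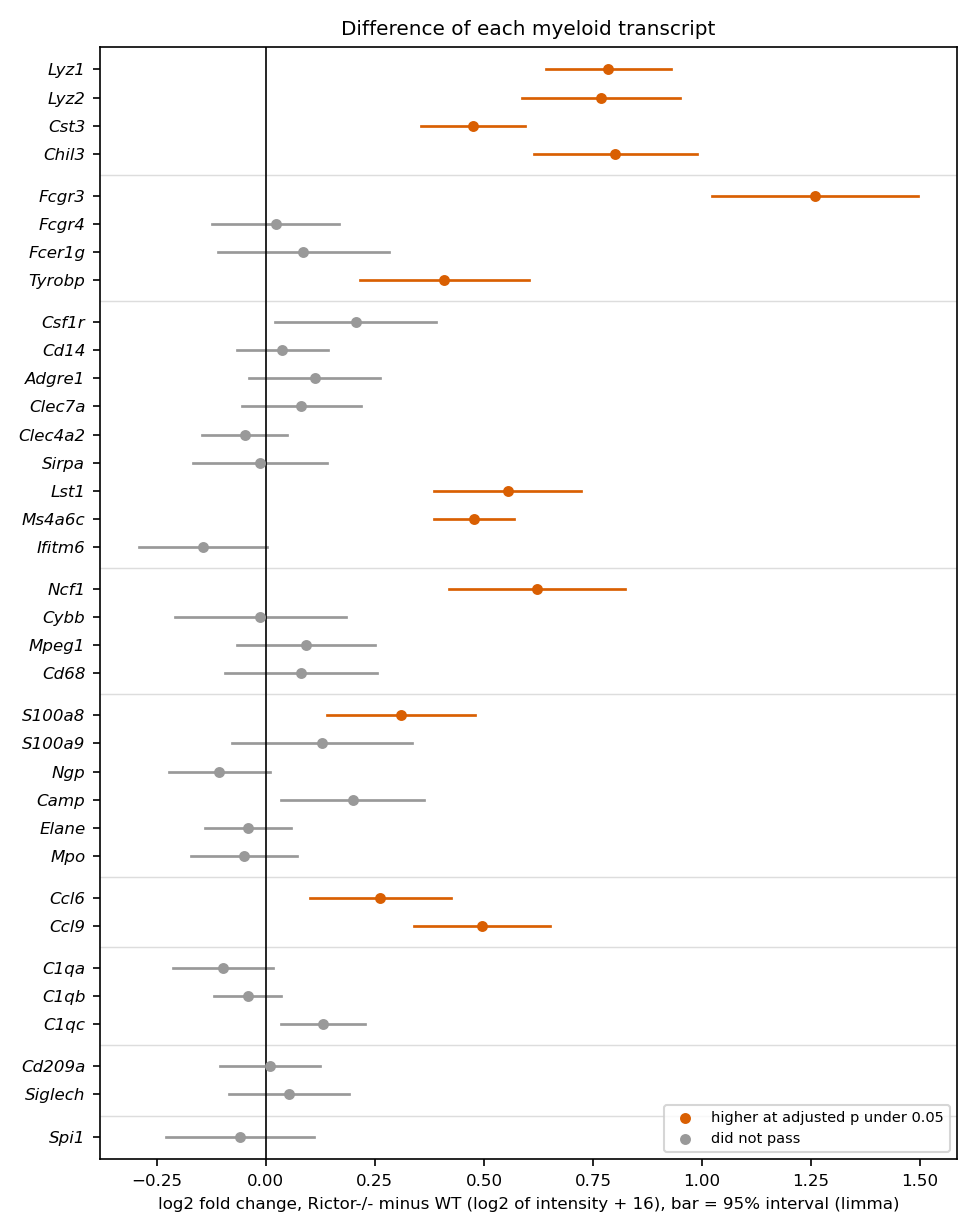
Log2 fold change of each myeloid transcript, *Rictor-/-* minus WT on the log2(intensity + 16) scale, with its 95% interval from limma, in the same role groups. Orange marks the 12 transcripts higher at an adjusted p under 0.05, from 0.26 for *Ccl6* to 1.26 for *Fcgr3*, and grey the 23 that did not pass.

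Neutrophil granule proteins and calprotectin gave 1 of 6. *S100a8*, a subunit of calprotectin, had intensities of 33.8 and 29.8 against 21.7 and 23.4. The log2 fold change of 0.31 (standard error 0.08, limma adjusted p = 0.0136) passed with all arrays. It did not pass without *Rictor-/-* replicate 1 (0.25, limma adjusted p = 0.122), without WT replicate 1 (0.28, 0.125) or without WT replicate 2 (0.34, 0.0808). *S100a9*, the partner subunit and the adjoining gene on chromosome 3, had 27.2 and 20.5 against 23.3 and 17.6. Its groups overlapped, and its difference of 0.13 did not pass (limma adjusted p = 0.427). *Camp*, the precursor of the antimicrobial peptide CRAMP, had 28.5 and 31.2 against 23.6 and 24.2. These groups did not overlap, yet the difference of 0.20 missed the threshold (limma adjusted p = 0.0888). *Ngp*, *Elane* and *Mpo*, the neutrophilic granule protein, neutrophil elastase and myeloperoxidase, were under the array medians at 9.26 to 15.4. Their differences were -0.11, -0.04 and -0.05, and none of the 3 passed.

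The *S100a8* promoter is shown as the only one printed with 2 matches to GAGGAA. It lies on the plus strand at chr3:90668821-90669070 (RefSeq, GRCm38.p6), with both matches, read on the other strand, in capitals. The first begins 170 bases before the start of the gene.
S100a8: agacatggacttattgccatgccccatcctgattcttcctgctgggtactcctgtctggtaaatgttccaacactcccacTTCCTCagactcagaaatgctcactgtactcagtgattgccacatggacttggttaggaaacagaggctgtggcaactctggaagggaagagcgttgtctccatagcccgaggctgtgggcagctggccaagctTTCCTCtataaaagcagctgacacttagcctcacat

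Both CC chemokines passed at low intensity. *Ccl9*, a chemokine of macrophages that attracts cells through CCR1, had intensities of 22.8 and 27.6 against 12.6 and 13.8. Its log2 fold change was 0.50 (standard error 0.07, limma adjusted p = 0.00033), and a second, dimmer probe set gave 0.17. *Ccl6*, its neighbour on chromosome 11 with 0 protein-coding genes between them, had 18.4 and 12.5 against 10.4 and 9.80. All 4 values of *Ccl6* were under the array medians and the *Rictor-/-* arrays lay farther from each other than the lower of them lay from the WT arrays. The log2 fold change of 0.26 (standard error 0.07, limma adjusted p = 0.0251) did not pass without *Rictor-/-* replicate 1 (0.13, 0.262), without WT replicate 1 (0.28, 0.188) or without WT replicate 2 (0.25, 0.25). A second *Ccl6* probe set gave -0.01.

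No C1q chain, dendritic cell receptor or transcription factor of the list passed. The C1q chains *C1qa*, *C1qb* and *C1qc*, made by tissue macrophages and neighbours on chromosome 4, had intensities of 4.96 to 15.1, under the medians on every array. Their sum was 28.7 and 28.3 on the *Rictor-/-* arrays and 28.4 and 29.3 on the WT arrays. *C1qc* had 11.1 and 9.75 against 8.38 and 7.87, a difference of 0.13 just short of the threshold (limma adjusted p = 0.0578), while *C1qa* gave -0.10 and *C1qb* -0.04. *Cd209a*, a DC-SIGN homologue, and *Siglech*, a receptor of plasmacytoid dendritic cells, had 12.8 to 16.9, with differences of 0.01 and 0.05. *Spi1*, which encodes PU.1, had 31.2 and 29.1 against 32.1 and 32.2, slightly lower in both *Rictor-/-* arrays. Its difference of -0.06 had a 95% interval of -0.23 to 0.11 and did not pass (limma adjusted p = 0.689).

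Seen as a sum of linear intensities, the 35 members reached 3965 and 3809 on the *Rictor-/-* arrays and 2790 and 2762 on the WT arrays, a ratio of 1.40. The same ratio over all genes was 1.02. *Ms4a6c* and *Cst3* together supplied 64.6% of the sum over the members. Without *Ms4a6c*, a setting chosen after its values were seen, the ratio of the members was again 1.40. Some members that work together did not all pass. *Ncf1* passed and *Cybb* did not, *S100a8* passed and *S100a9* did not, and *Fcgr3* passed while *Fcgr4* and *Fcer1g* did not. The difference between the members of a pair was not tested.

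**Figure D3:**
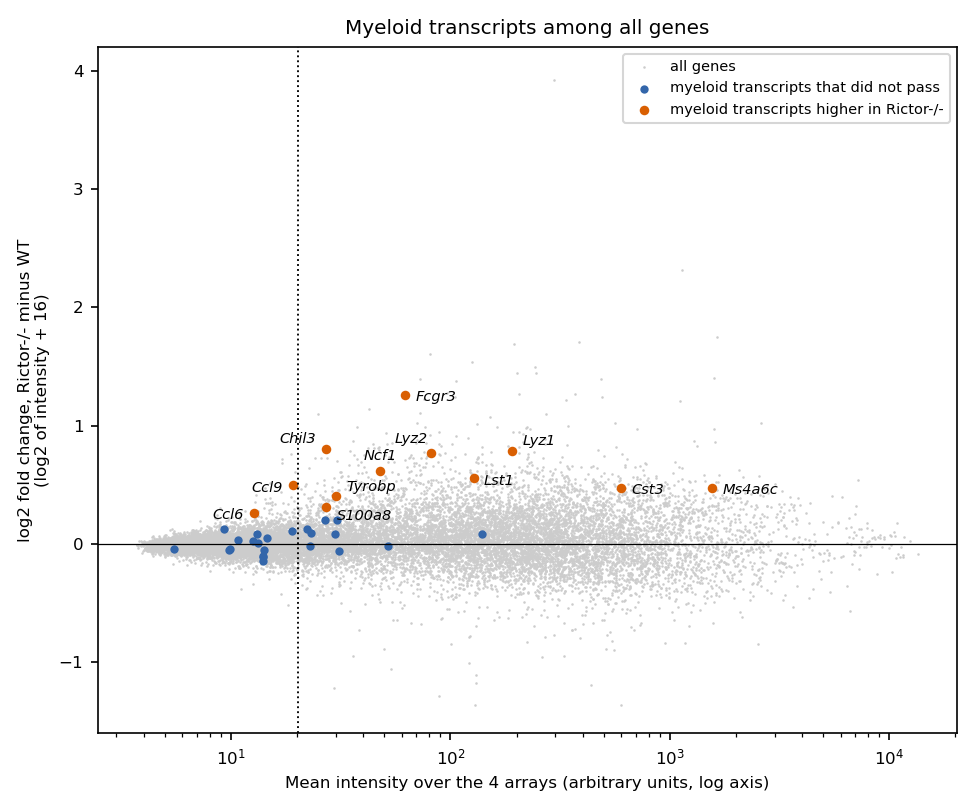
Mean intensity over the 4 arrays (log axis) against log2 fold change, *Rictor-/-* minus WT, for 18193 genes (grey), with the myeloid transcripts that were higher in orange and named and those that did not pass in blue. The dotted line is the mean of the array medians (20.1), and 10 of the 12 named genes lie to its right.

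Other myeloid genes gave counts nearer to those of all genes, and the difference between the lists was not tested. Of 81 written down for neutrophils, monocytes and macrophages, and dendritic cells, 69 had a probe set of their own, and 6 of them were higher (8.70%, against 12.5% of all genes) and 4 lower (5.80%, against 7.19%). Their median difference was 0.00017 on the log2 scale, and 39 of the 69 lay under the array medians. The 6 higher genes include surface molecules that NK cells or activated T cells also carry. *Itgax*, the integrin chain CD11c, had intensities of 145 and 142 against 54.4 and 45.6, a log2 fold change of 1.28. *Ccr2*, the receptor by which monocytes leave the bone marrow, had 572 and 631 against 332 and 347, a log2 fold change of 0.79. *Itgam*, the integrin chain CD11b, had 30.1 and 32.4 against 13.6 and 14.9, a log2 fold change of 0.64. The other 3 were *Ccr9* (0.33), a homing receptor of T cells and plasmacytoid dendritic cells, *Pglyrp1* (0.32), a peptidoglycan-binding protein of granules, and *Apoe* (0.24), a lipid carrier made by macrophages. Of the lower genes, *Cebpa* (-0.58) encodes a transcription factor of granulocytes and monocytes, and *Irf8* (-0.44) one of monocytes and dendritic cells. The other lower genes were *Bst2* (-0.25), an interferon-induced protein of plasmacytoid dendritic cells, and *Fpr2* (-0.18), a formyl peptide receptor. *Apoe* and *Fpr2* were under the medians on every array. The summed intensity of the 69 was 5770 and 5628 against 5467 and 5428, a ratio of 1.05 where all genes gave 1.02. In the means, *Ccr2* alone rose by more than this sum.

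Markers of other cells of the spleen were read too. For its migration assay the study depleted cells bearing CD8, B220, CD11c, Gr-1, TER119 or NK1.1 before the TFH sort, and the methods do not say whether the array samples were depleted likewise. The counts below stand against 12.5% of all genes higher and 7.19% lower. Of 9 NK cell markers 4 were higher, *Gzma*, *Klre1*, *Prf1* and *Nkg7*, with log2 fold changes of 2.32, 0.79, 0.71 and 0.51. The list's summed intensity was 5966 and 5654 against 3199 and 3022. Most of that sum came from *Gzma* (1998 and 1823 against 359 and 381) and *Nkg7* (3626 and 3487 against 2602 and 2385). Among the receptor genes of the list, *Klre1* had 54.6 and 42.1 against 21.6 and 20.6. *Ncr1*, *Klra8* and *Klra7* were under the array medians in every sample at 4.72 to 12.6, and 0 of these 3 passed. Of the 11 B cell markers *Cd79b* (0.40) and *Pax5* (0.22) were higher and *Cd22* (-0.82) lower, while *Pax5*, *Cd79a* and *Ms4a1* were under the medians. The list summed to 525 and 517 against 818 and 813. *Cd22*, at 393 and 392 against 704 and 703, supplied most of it. In the means, the fall of *Cd22* was larger than that of the sum. Plasma cell markers gave *Jchain* (1.49) and *Mzb1* (0.88) higher and *Xbp1* (-0.19) lower of 7, with sums of 1558 and 1629 against 1425 and 1373. For CD8 T cells *Cd8b1* was higher (0.53), and *Cd8a*, at 23.7 to 25.2, differed by 0.0035, with sums of 163 and 148 against 115 and 106. Of 8 erythroid and platelet markers *Alas2* (0.19) was higher, with sums of 164 and 158 against 145 and 149. Of the 8, 5 were under the medians, *Alas2* among them. No marker was listed at 0. The part of these cells in the differences of the 12 higher myeloid transcripts was not tested.

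**Figure D4:**
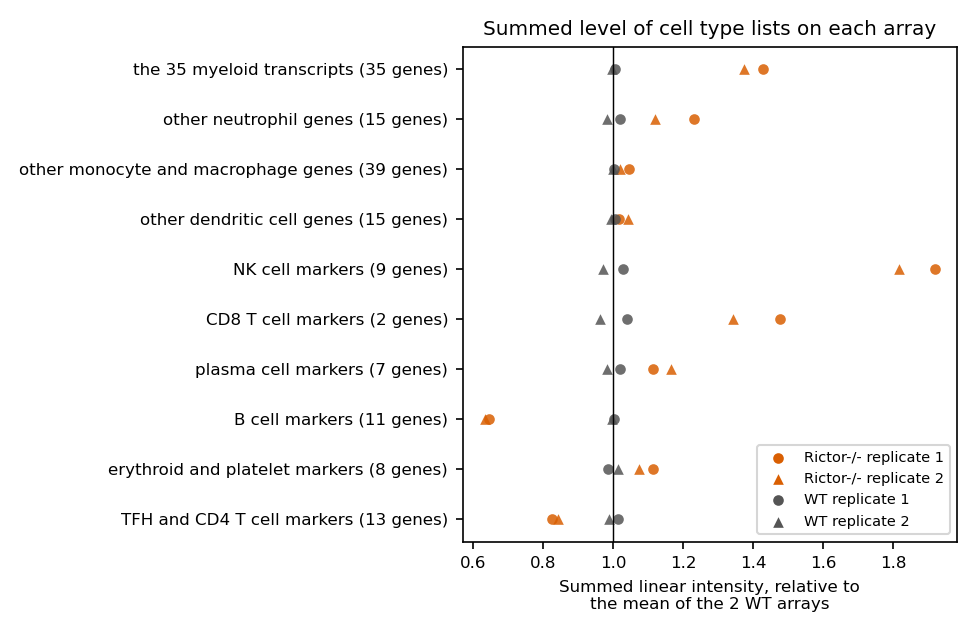
Summed linear intensity of each gene list on each array, divided by the mean of the 2 WT arrays for that list, with *Rictor-/-* arrays in orange and WT arrays in grey. All lists but the B cell and TFH lists lie above both WT arrays in both *Rictor-/-* arrays, while the B cell and TFH lists lie below them. The margin is narrow for the other monocyte and macrophage genes and the other dendritic cell genes, each with a ratio of 1.03 in the means. The sum over all 18193 genes, not drawn, was also higher on both *Rictor-/-* arrays, with a ratio of 1.02. Single genes weigh heavily in these sums. In the means, *Pglyrp1* (other neutrophil), *Ccr2* (other monocyte and macrophage), *Itgax* (other dendritic cell) and *Jchain* (plasma cell) each rose by more than their list. *Cd22* fell by more than the B cell list.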

How the data were processed

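Total RNA of TFH cells was labelled and hybridised to Affymetrix mouse arrays by a company. The authors deposited one intensity per probe set on a linear scale. MAS5 and RMA are named in the submitters' processing notes, with neither a version nor a role. The labels and the methods do not state how background was corrected. The deposited intensities run from 3.05 to 14055 and were used as they stand, since the array medians (20.0 to 20.4) are already alike. Of 45037 probe sets, 34945 had 1 gene symbol, 932 several and 9160 none in the platform annotation, and 34741 matched RefSeq (GRCm38.p6) by Entrez number, which changed 0 symbols. A gene was read from the brightest probe set named for it alone. There were 18193 genes, and 9010 had several sets.

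Groups came from the sample labels. Values became log2(intensity + 16) and were fitted in R 4.3.3 by limma 3.58.1 (lmFit, then eBayes, the prior variance following the mean signal). Benjamini-Hochberg adjustment ran over all genes. Both groups held 2 arrays, which limits the precision. The steps were tested on simulated data. Members, lists and alternatives were chosen with earlier results of these data known, and counts over lists are descriptions. Every member is named, with array values for those that passed or were brighter than the array medians. Outside the TFH list, genes of the other lists that passed are named, with some further markers. Promoters are RefSeq sequences, found for 27 of the 35 members.

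The alternatives were quantile normalization, median centring, a pseudocount of 1, only probe sets at or above the array medians, the mean of all probe sets, leaving out sets named _s_at, _x_at or _a_at, adjustment over all probe sets, no trend, the replicate number as a block, each array left out, and the methods' t-test. Counting a member if any probe set passed, and the sum without *Ms4a6c*, were added after the data were seen.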

Additional observations from a re-analysis of the deposited data

How the results depend on the processing

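Of the 12 higher members, 8 kept their call in every limma setting that kept them, 13 settings or, for *Cst3*, *Lst1* and *Ccl9*, 12. The others were *Lyz1*, *Tyrobp*, *S100a8* and *Ccl6*. *Ccl6* also lost its call with the mean of all probe sets (0.13, limma adjusted p = 0.114), with adjustment over all probe sets (0.0702) and without the trend (0.0968). The count of higher members ran from 8 of 30, without sets marked _s_at, _x_at or _a_at (*Cst3*, *Lst1* and *S100a8* then had no set), to 13 with quantile normalization, and from 9 to 12 with an array left out. The methods' t-test called 0 of them after adjustment and 13 at an unadjusted p, and over all genes 3 higher and 3 lower. Lower members numbered 0 to 1 with an array left out and 2 by the unadjusted t-test. Among the 69 other myeloid genes (6 higher, 4 lower), the adjusted t-test called 0 and 0, the unadjusted one 7 higher and 7 lower, and 1 to 3 were lower with an array left out. The median difference of the members was 0.31 without dim probe sets, where all genes that bright had 0.030. That setting keeps *Chil3* only through its *Rictor-/-* values. With a pseudocount of 1 the median of the members was 0.17. With the mean of all probe sets 842 genes were lower, against 1308. Arrays of the same number did not deviate together (r = -0.033 across 18193 genes), so that the numbers give no pairing, and a replicate block left 12 members higher. Of the 23 members that did not pass, 8 changed sign in some setting. *Camp* has 1 probe set, so its difference stayed at 0.20 when the sets of each gene were averaged. It passed in that setting (limma adjusted p = 0.0478) and without the trend (limma adjusted p = 0.0419). *C1qc* passed with quantile normalization (limma adjusted p = 0.0484). *Ifitm6* gave -0.24 without *Rictor-/-* replicate 2. The cause was not tested. The 16 members under the array medians could be read only weakly.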
